A study of Mus musculus with 27 samples.

Results

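The genes described here were 45 cell cycle genes out of the 21850 genes of the deposited mouse count table, taken by name as a set of cyclins, cyclin-dependent kinases and genes of DNA replication and mitosis. By role they fell into 7 G1 cyclins and kinases, 4 transcription factors, 10 genes of origin licensing and the replicative helicase, 5 genes of nucleotide supply and the replication fork, 4 mitotic cyclins and their kinase, 6 mitotic kinases and checkpoint genes, 2 partners of the anaphase-promoting complex, 5 spindle motor and kinetochore genes and 2 markers of proliferation. Their RNA was followed in 27 libraries of 9 groups with 3 libraries each. One group was freshly isolated hepatocytes. Another 4 were hepatocyte organoids (HepOrgs, hepatocytes grown in Matrigel, passage 2) kept for 7 or 14 days either in HM-Wnt, the expansion medium with EGF, HGF, FGFs, gastrin, nicotinamide, RSPO1 and inhibitors of GSK3 and TGFβ signalling, or in MM, a basal medium without those additions. Both media contained Wnt-conditioned medium and a ROCK inhibitor. Per the methods of the study, all HepOrgs had first been expanded in HM-Wnt, and those in MM were moved to it afterwards. The remaining 4 groups were periportal assembloids, in which HepOrgs were aggregated with cholangiocytes and portal mesenchymal cells and kept in MM for 7 or 18 days (1 and 2.5 weeks). Homeostatic assembloids were seeded with 250 mesenchymal cells and fibrotic-like assembloids with 2500. All samples were primary cells of adult mice on a C57BL/6 background and were labelled wild type except 1. Hepatocyte replicate 3 carries WT in its title and MDR2-het in its genotype label, and it was kept as a hepatocyte library by its title. In assembloids the cholangiocytes and the mesenchyme had been expanded or sorted from other mice before aggregation, per the methods of the study.

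Before a cell divides it must pass from G1 into S phase, copy its DNA once and then separate the copies. D-type cyclins with their kinases are the step that growth factors act on, and they relieve the block that the retinoblastoma protein places on E2F transcription factors. E2F targets include cyclin E, the MCM helicase that marks replication origins, and the enzymes that supply nucleotides. Cyclins A and B with Cdk1 then drive mitosis, and their genes and those of the spindle and the checkpoint are transcribed late in the cycle through CHR and CCAAT elements. Most hepatocytes of an adult liver rest outside the cycle and can enter it again after tissue loss, and many of them are polyploid. In a bulk library, fewer cells in the cycle and less of a transcript per cell cannot be told apart.

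The total count per library lay between 30289364 and 65348596. One library stood apart. Homeostatic assembloid replicate 2 at 1 week had a count for 8465 genes, against 14016 to 16018 in the other 26, and 30 of the 45 genes were at 0 in it while Bub1b, Ccnd2, Foxm1, Mcm4, Mcm7 and Tyms had their highest level of all libraries there. Each assembloid result is therefore given with and without it. The labelled cell types were checked with lists of marker genes. Summed over 8 hepatocyte markers, the freshly isolated cells held 80986 to 107655 CPM (counts scaled to library size, with TMM factors over all 27 libraries) and the 12 HepOrg libraries 12222 to 44137. Summed cholangiocyte markers were at 11.6, 143 and 30.7 CPM in hepatocytes and at 3602 to 15508 in HepOrgs. Hepatocyte replicate 2 had the highest sums of cholangiocyte, mesenchyme (157 CPM), endothelial (198) and immune markers (491) of the 3 hepatocyte libraries. CPM are not corrected for gene length, so that levels are compared below between libraries for 1 gene and never between genes.

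Promoter sequences were searched for the motifs that background knowledge ties to the early and the late genes of the cycle. RefSeq promoters (build GRCm38.p6, 250 bases before to 50 after the transcription start) were matched for 37 of the 45 genes, with 39 promoters in all. They were searched on both strands for the CHR element (TTTGAA), the CCAAT box (CCAAT) and an E2F site (TTTGGCGC, TTTCGCGC, TTTCCCGC or TTTGCCGC). The CHR was found in 12 of the 16 promoters of mitotic genes, which is 75.0%, and in 3 of the 23 promoters of G1 and replication genes, or 13.0%. Among all 32851 promoters of the same length, 17.9% held it. The CCAAT box was in 15 of 16 mitotic promoters and in 14 of 23 G1 and replication promoters, against 37.4% of all promoters. An E2F site was in 7 of 23 G1 and replication promoters (30.4%) and in 1 of 16 mitotic promoters (6.25%, that of Cdk1), against 2.26% of all. A match describes these letters only, and none of the sites was measured here.

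The promoters of 5 genes are printed from the 5′ to the 3′ end, because they carry the motifs of early and of late genes and belong to genes whose RNA is followed below. Capitals mark matches to any of the searched motifs. Cdk1 (chr10:69352863-69353162, minus strand), Ccnb2 (chr9:70421505-70421804, minus strand) and Plk1 (chr7:122159185-122159484, plus strand) are mitotic genes. Mcm5 (chr8:75109259-75109558, plus strand) and Mcm6 (chr1:128359656-128359955, minus strand) encode subunits of the replicative helicase. The CHR nearest the start lay 15 bases before it in Cdk1, 5 bases after it in Ccnb2 and 31 bases after it in Plk1. In Mcm5 the E2F matches began 153 and 149 bases before the start and overlapped each other, and in Mcm6 they began 110, 106 and 47 bases before it, the first and second overlapping.
Cdk1: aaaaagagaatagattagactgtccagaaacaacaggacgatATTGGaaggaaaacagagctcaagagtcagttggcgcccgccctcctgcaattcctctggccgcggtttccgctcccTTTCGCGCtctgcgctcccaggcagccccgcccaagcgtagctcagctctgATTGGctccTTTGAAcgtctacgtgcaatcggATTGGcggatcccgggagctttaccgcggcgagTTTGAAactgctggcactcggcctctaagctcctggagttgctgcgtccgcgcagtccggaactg
Ccnb2: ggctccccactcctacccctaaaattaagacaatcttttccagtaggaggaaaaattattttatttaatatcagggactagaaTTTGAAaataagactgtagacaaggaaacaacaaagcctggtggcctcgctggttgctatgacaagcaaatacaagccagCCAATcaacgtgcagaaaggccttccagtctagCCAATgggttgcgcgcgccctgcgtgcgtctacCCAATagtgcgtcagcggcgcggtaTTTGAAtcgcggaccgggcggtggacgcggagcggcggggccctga
Plk1: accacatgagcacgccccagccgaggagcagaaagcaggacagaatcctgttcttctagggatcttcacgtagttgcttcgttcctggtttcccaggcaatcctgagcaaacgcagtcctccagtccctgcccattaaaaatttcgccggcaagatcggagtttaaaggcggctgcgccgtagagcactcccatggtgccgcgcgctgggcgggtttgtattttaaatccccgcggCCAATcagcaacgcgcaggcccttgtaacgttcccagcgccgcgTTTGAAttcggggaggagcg
Mcm5: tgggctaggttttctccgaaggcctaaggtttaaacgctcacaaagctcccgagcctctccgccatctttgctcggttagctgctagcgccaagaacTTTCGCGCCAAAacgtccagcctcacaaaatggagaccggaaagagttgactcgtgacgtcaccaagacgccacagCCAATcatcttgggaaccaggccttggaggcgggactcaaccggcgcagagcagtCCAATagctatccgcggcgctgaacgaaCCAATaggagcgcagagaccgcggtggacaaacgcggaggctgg
Mcm6: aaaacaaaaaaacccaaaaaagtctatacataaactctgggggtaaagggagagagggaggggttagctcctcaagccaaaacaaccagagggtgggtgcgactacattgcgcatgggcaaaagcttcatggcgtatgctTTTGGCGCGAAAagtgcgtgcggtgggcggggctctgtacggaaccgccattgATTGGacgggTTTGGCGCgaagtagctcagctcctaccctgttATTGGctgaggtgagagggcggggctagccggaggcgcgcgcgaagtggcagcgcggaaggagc

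The map of all genes that had counts gives their levels in each library before any test.

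**Figure D1:**
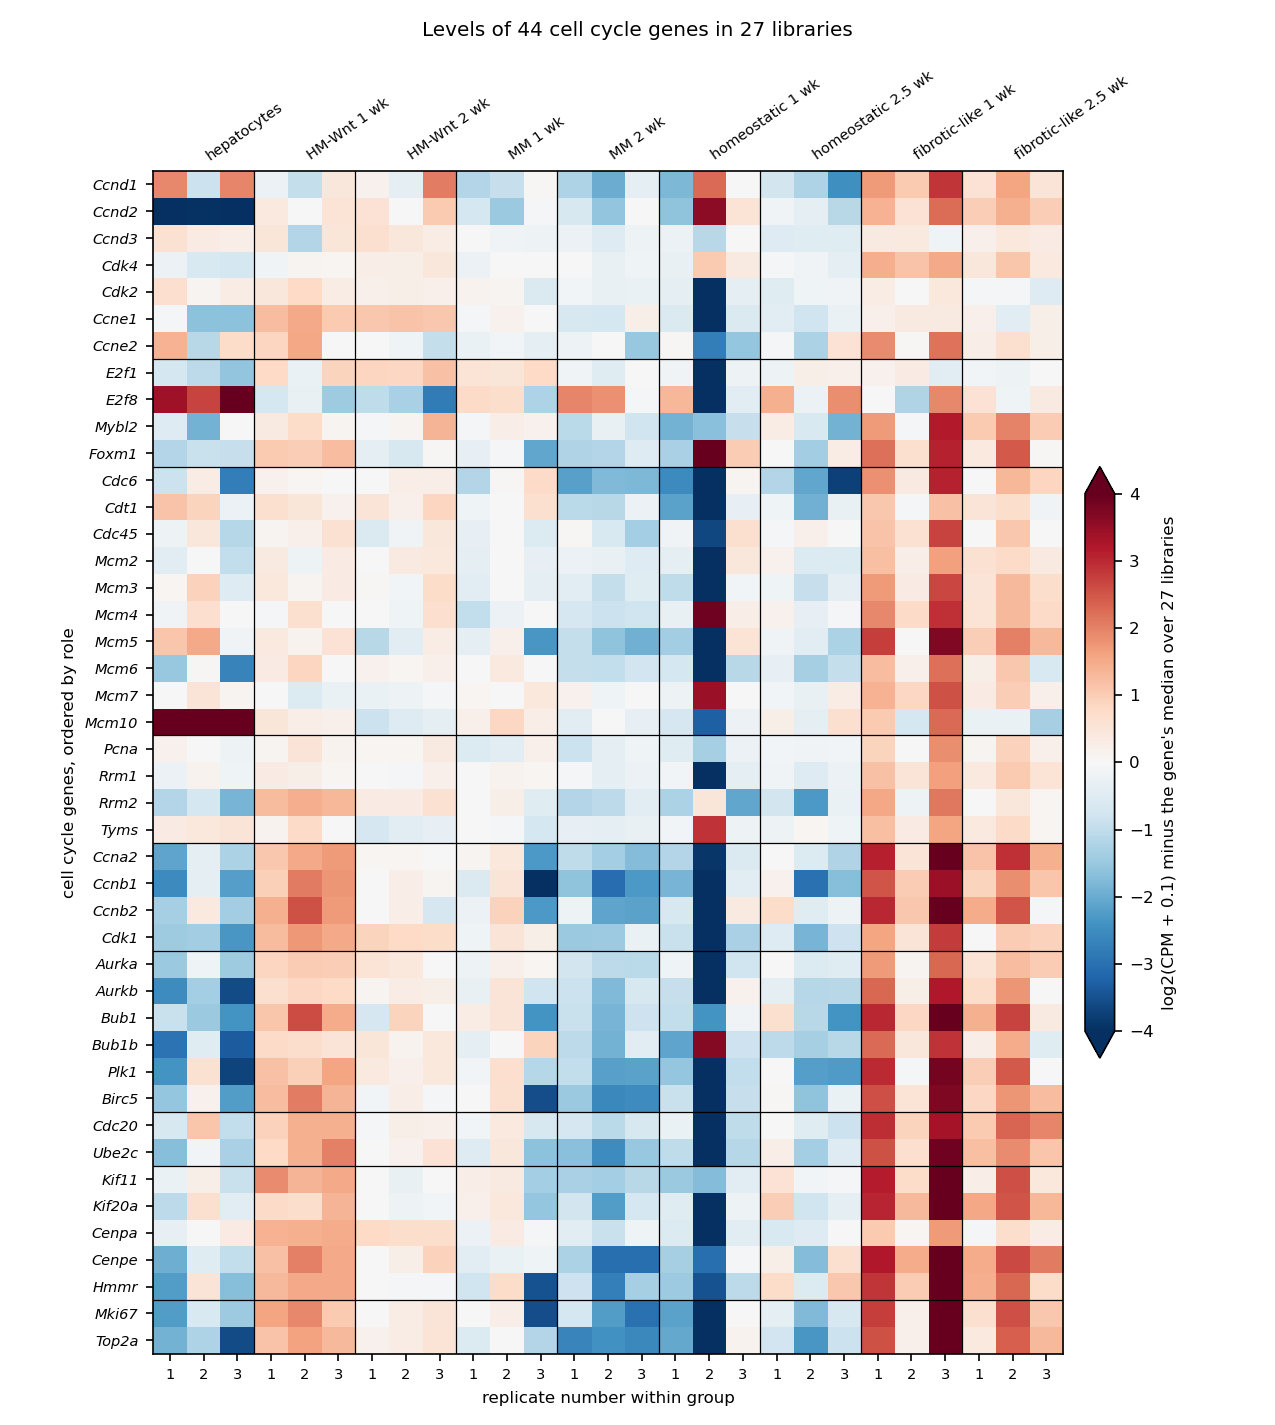
Levels of 44 cell cycle genes (rows, in the order of their roles) in 27 libraries (columns, by group), as log2(CPM + 0.1) minus the median of that gene over the libraries. Colours run from −4 to 4. The median sum of the mitotic genes is highest in fibrotic-like assembloids at 1 week (286 CPM, libraries from 76.3 to 624), then in HM-Wnt HepOrgs at 1 week (141 CPM, 115 to 157). Homeostatic assembloid replicate 2 at 1 week has low colours for most genes (30 of 45 genes at 0).

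The first comparison asked how cycle genes differed between hepatocytes and the HepOrgs grown from them. Summed cholangiocyte markers also differed, at 11.6 to 143 CPM in hepatocytes and 3602 to 15508 in HepOrgs. The part of cell make-up in the results against hepatocytes was not tested. After 1 week in HM-Wnt, 22 of the 44 genes tested were higher than in hepatocytes and 3 were lower, against 24.9% of 13405 genes tested that were higher and 24.8% that were lower. The median log2 fold change of the 44 was 1.37, and that of all genes tested was 0.02. The mitotic roles held most of the increase. All 4 mitotic cyclins and kinase genes rose, as did 5 of 6 mitotic kinases and checkpoint genes, 3 of 5 spindle and kinetochore genes and both proliferation markers, whereas only 1 of 10 licensing genes rose and 2 fell. Log2 fold changes are given here with their standard error (SE) and the adjusted p of edgeR's quasi-likelihood test with Benjamini-Hochberg correction over all genes of the fit, and a gene is said to rise or fall where that p was under 0.05. Levels and fold changes come from separate scalings, the first over 27 libraries and the second within the libraries of the fit.

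Cdk1 (ENSMUSG00000019942), the kinase of mitotic entry, was at 2.56, 2.63 and 1.31 CPM in the 3 hepatocyte libraries. In HM-Wnt HepOrgs it was at 16.9, 23.4 and 20.3 CPM after 1 week and at 13.2, 12.2 and 11.7 after 2 weeks. In MM HepOrgs it was at 6.17, 9.95 and 8.2 CPM and, after 2 weeks, at 2.46, 2.51 and 5.77. Levels in HM-Wnt at either time and in MM at 1 week lay above every hepatocyte library, and those in MM at 2 weeks overlapped them. Against hepatocytes the log2 fold change of Cdk1 was 3.15 (SE 0.35, adjusted p = 1.15e-05) after 1 week in HM-Wnt, 2.45 (SE 0.34, adjusted p = 6.07e-05) after 2 weeks, and 1.87 (adjusted p = 0.000672) after 1 week in MM.

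Top2a (ENSMUSG00000020914), the topoisomerase that untangles replicated chromosomes, was at 1.01, 1.66 and 0.244 CPM in hepatocytes. It stood at 8.94, 12.5 and 10.2 CPM in HM-Wnt at 1 week and at 4.61, 4.95 and 5.93 at 2 weeks. In MM its levels were 2.76, 4.04 and 1.72 CPM at 1 week and 0.57, 0.679 and 0.594 at 2 weeks, the last of these within the hepatocyte range. It rose by 3.34 (SE 0.50, adjusted p = 0.000133) and 2.33 (SE 0.48, adjusted p = 0.00132) on the log2 scale in HM-Wnt at 1 and 2 weeks and by 1.51 (adjusted p = 0.0205) in MM at 1 week.

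Mki67 (ENSMUSG00000031004), which encodes the Ki-67 antigen of cycling cells, was at 0.399, 1.44 and 0.761 CPM in hepatocytes and at 6.97, 8.82 and 4.8 in HM-Wnt at 1 week. It was at 2.27, 2.79 and 3.26 CPM in HM-Wnt at 2 weeks, at 2.23, 2.72 and 0.101 in MM at 1 week and at 1.35, 0.407 and 0.198 in MM at 2 weeks. Replicate 3 in MM at 1 week lay far below the other two of its group. Mki67 passed the test at 1 week in HM-Wnt (log2 fold change 2.88, SE 0.88, adjusted p = 0.0157), and it did not at 2 weeks in HM-Wnt (1.60, adjusted p = 0.13) nor at 1 week in MM (0.94, adjusted p = 0.39).

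The mitotic cyclins, too, were highest in HM-Wnt at 1 week among hepatocytes and HepOrgs. Ccna2, cyclin A2, was at 0.24, 1.05 and 0.518 CPM in hepatocytes, at 3.02, 4.13 and 4.67 in HM-Wnt at 1 week and at 1.46, 1.46 and 1.36 at 2 weeks. In MM it was at 1.48, 1.86 and 0.203 CPM and then at 0.622, 0.475 and 0.339. Ccnb1, cyclin B1, was at 0.453, 2.45 and 0.609 CPM in hepatocytes and at 6.19, 13.7 and 10.9 in HM-Wnt at 1 week. Both passed only in HM-Wnt at 1 week, with log2 fold changes of 2.59 (SE 0.66, adjusted p = 0.00551) for Ccna2 and 3.06 (SE 0.99, adjusted p = 0.0204) for Ccnb1, among the 4 comparisons with hepatocytes. For both genes hepatocyte replicate 2 was the highest of the hepatocyte libraries.

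Aurkb, the kinase of the chromosomal passenger complex, was at 0.293, 0.788 and 0.0913 CPM in hepatocytes and at 3.4, 3.92 and 3.85 in HM-Wnt at 1 week. At 2 weeks in HM-Wnt it was at 2.34, 2.72 and 2.58 CPM, and in MM it was at 1.75, 3.15 and 1.22 after 1 week. No HepOrg library of these 3 groups overlapped the hepatocytes, and Aurkb rose by 3.09 (SE 0.58, adjusted p = 0.000721), 2.56 (SE 0.57, adjusted p = 0.0021) and 2.27 (SE 0.56, adjusted p = 0.00564) on the log2 scale. Plk1, which acts from mitotic entry to cytokinesis, was at 0.293, 3.06 and 0.0609 CPM in hepatocytes and at 4.62, 3.92 and 6.14 in HM-Wnt at 1 week. Its log2 fold change of 2.05 did not pass (adjusted p = 0.074, and 0.0384 with the replicate number as a block), with hepatocyte replicate 2 again above the other two. The replicate numbers were not shown to pair hepatocytes with HepOrgs, which limits the block values against hepatocytes here and below. Bub1, a spindle checkpoint kinase, had the largest log2 fold change of the mitotic genes in HM-Wnt at 1 week, at 3.65 (SE 1.09, adjusted p = 0.0136), from 0.186, 0.0875 and 0 CPM in hepatocytes to 1.05, 3.1 and 1.38.

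The plot of fold changes against hepatocytes sets the 4 HepOrg groups side by side. After 2 weeks in HM-Wnt, 12 genes were higher and 3 lower (all genes 26.1% and 25.7%), with a median log2 fold change of 0.72. After 1 week in MM, 9 were higher and 4 lower (all genes 21.5% and 21.3%), with a median of 0.43. After 2 weeks in MM, 2 were higher and 9 lower (all genes 19.7% and 20%), and the median was −0.59. In that last group none of the mitotic roles held a gene that passed in either direction, while 5 of 10 licensing genes fell. These splits depend on the scaling, since scaling by total counts raised the median of all genes tested by 0.38, 0.59, 0.44 and 0.36 on the log2 scale in HM-Wnt at 1 and 2 weeks and MM at 1 and 2 weeks. With it the counts higher and lower were 26 and 2, 21 and 2, 12 and 2, and 7 and 3. The shares of all genes under total counts are not given here. These counts therefore do not set the genes apart from the rest of the table. Leaving out hepatocyte replicate 2, the library with the most marker RNA of other liver cells, gave 27 and 3, 18 and 4, 10 and 4, and 4 and 7. Leaving out any single library compared, the MDR2-het labelled hepatocyte replicate 3 among them, gave 19 to 30, 13 to 22, 10 to 14 and 5 to 11 genes past the threshold.

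**Figure D2:**
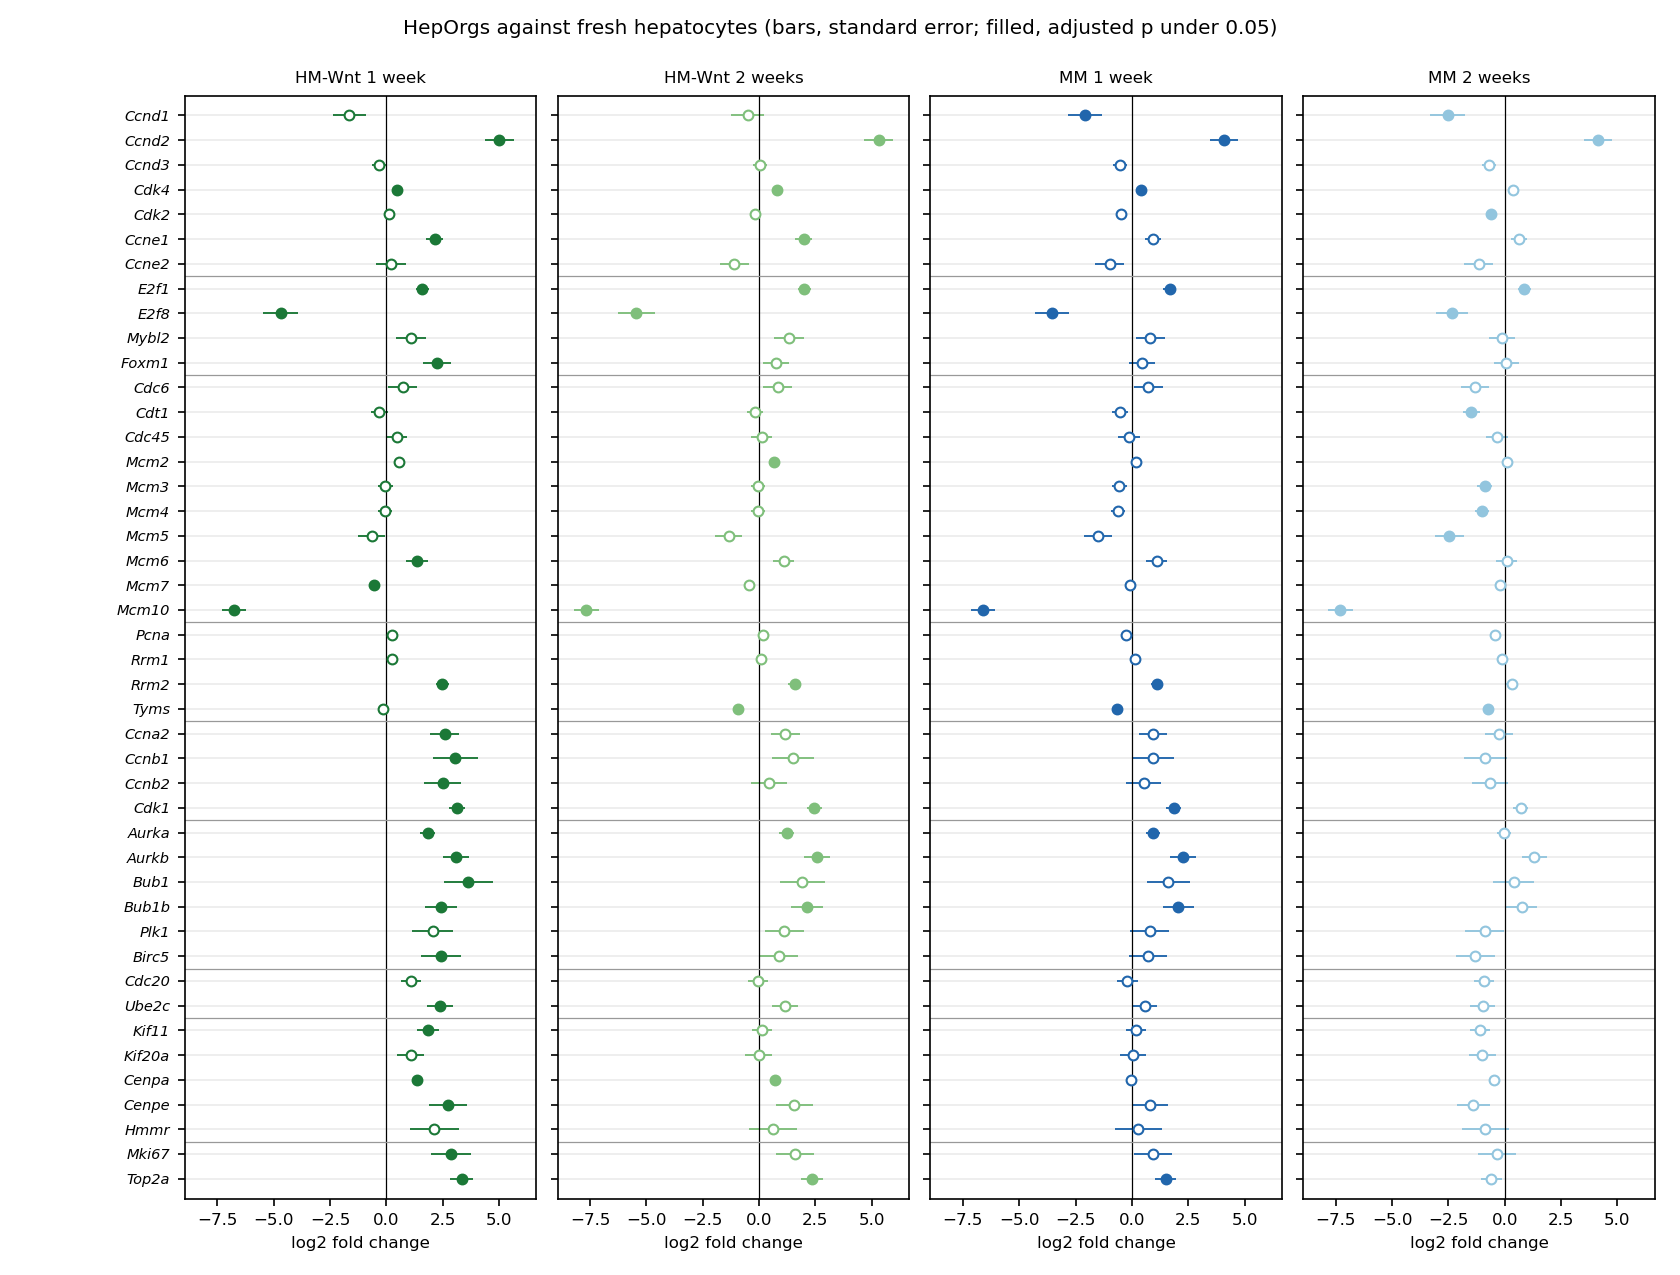
Log2 fold change against hepatocytes (x axis, with SE bars) of each of 44 genes (y axis, by role) in 4 panels, 1 per HepOrg group, with 3 libraries per group. Filled points passed an adjusted p of 0.05. The mitotic genes lie to the right of 0 in HM-Wnt at 1 week and around or left of it in MM at 2 weeks, and Mcm10 and E2f8 lie left of 0 in all 4 panels.

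Among the G1 genes, the D-type cyclins did not move together. Ccnd2 (ENSMUSG00000000184, GRCm39 chromosome 6, 127102125 to 127129156, minus strand), cyclin D2, was at 1.23, 7.97 and 4.93 CPM in hepatocytes. It was at 164, 124 and 183 CPM in HM-Wnt at 1 week, at 186, 126 and 261 at 2 weeks, at 76.1, 44.7 and 122 in MM at 1 week and at 80.1, 42.1 and 125 at 2 weeks. Every HepOrg library lay above every hepatocyte library, with log2 fold changes of 5.01 (SE 0.64, adjusted p = 3.77e-05), 5.30 (SE 0.65, adjusted p = 2.28e-05), 4.07 (SE 0.61, adjusted p = 0.000187) and 4.13 (SE 0.62, adjusted p = 0.000188). Ccnd2 had the largest positive log2 fold change of the 44 genes in each of the 4 comparisons.

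Ccnd1, cyclin D1, was at 129, 18.7 and 131 CPM in hepatocytes, with replicate 2 far below the other two. In HepOrgs it was at 28.7, 17.5 and 46.4 CPM and then 37.8, 25.5 and 139 in HM-Wnt, and at 14.8, 17.8 and 34.5 and then 14.1, 8.42 and 26 in MM. The HepOrg groups overlapped the hepatocytes at that library, and HM-Wnt replicate 3 at 2 weeks was above all of them. Ccnd1 fell in MM by 2.09 on the log2 scale at 1 week (SE 0.75, adjusted p = 0.0383) and by 2.53 at 2 weeks (SE 0.76, adjusted p = 0.0178), and its log2 fold change of −1.64 in HM-Wnt at 1 week did not pass (adjusted p = 0.082, and 0.0149 with the replicate number as a block). Ccnd3, cyclin D3, was at 93, 77.6 and 73.3 CPM in hepatocytes and at 86.1, 27.3 and 85.7 in HM-Wnt at 1 week, and passed in neither direction there (−0.33). Cdk4, the kinase partner of the D-type cyclins, was at 65.8, 49.9 and 46.9 CPM in hepatocytes and at 70.3, 83.7 and 81.5 in HM-Wnt at 1 week, a log2 fold change of 0.48 (adjusted p = 0.0173).

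Ccne1, cyclin E1, which carries cells into S phase, was at 13, 4.33 and 4.32 CPM in hepatocytes and at 32.4, 39.8 and 28.5 in HM-Wnt at 1 week. It stayed near that level at 2 weeks in HM-Wnt (29.3, 30.1 and 29.5 CPM), and it was at 13.4, 15.3 and 13.8 and then 8.84, 8.47 and 16.4 in MM. Its log2 fold changes in HM-Wnt were 2.15 (SE 0.38, adjusted p = 0.00042) and 1.98 (adjusted p = 0.000658). Ccne2, its paralogue, was at 1.68, 0.219 and 1.04 CPM in hepatocytes and at 1.13, 1.89 and 0.583 in HM-Wnt at 1 week, and the 2 groups overlapped. The Ccne2 locus shares 55.5% of its length with Ints8, so that its counts are uncertain.

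Of the transcription factors, E2f1, an activator of S phase genes, rose in all 4 HepOrg groups. It was at 5.73, 4.51 and 3.11 CPM in hepatocytes, at 16.3, 7.83 and 17.6 and then 17.1, 16.8 and 21.5 in HM-Wnt, and at 13.9, 13.1 and 16.4 and then 8.43, 6.72 and 9.39 in MM. Every HepOrg library was above every hepatocyte library, with log2 fold changes of 1.60 (adjusted p = 0.000614), 2.00 (adjusted p = 0.000106), 1.67 (adjusted p = 0.000597) and 0.88 (SE 0.29, adjusted p = 0.0275). Foxm1, an activator of mitotic genes, was at 0.16, 0.219 and 0.213 CPM in hepatocytes and at 1.1, 1.08 and 1.3 in HM-Wnt at 1 week, and rose there (2.24, SE 0.61, adjusted p = 0.00823). At 2 weeks in HM-Wnt it was at 0.353, 0.277 and 0.51 CPM.

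E2f8 (ENSMUSG00000046179), an atypical E2F that represses E2F targets and is known for its part in hepatocyte polyploidy, went the other way. It was at 25.8, 16 and 62.2 CPM in hepatocytes, against 1.39, 1.89 and 0.821 in HM-Wnt at 1 week and 1.11, 0.905 and 0.255 at 2 weeks. In MM it was at 4.04, 3.88 and 0.932 CPM at 1 week and at 9.31, 8.56 and 2.21 at 2 weeks. All 12 HepOrg libraries lay below all hepatocyte libraries, and E2f8 fell by 4.69 (SE 0.79, adjusted p = 0.000319), 5.46 (SE 0.82, adjusted p = 0.000116), 3.54 (SE 0.74, adjusted p = 0.00195) and 2.34 (SE 0.70, adjusted p = 0.017) on the log2 scale. Its close relative E2f7 was at 2.21, 0.0875 and 1.83 CPM in hepatocytes, at 0.29, 0.258 and 0.324 in HM-Wnt at 1 week and at 0 in all 3 MM libraries at 2 weeks. Hepatocyte replicate 2 overlapped HM-Wnt for E2f7, which did not pass there (log2 fold change −2.10, adjusted p = 0.11).

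Mcm10 (ENSMUSG00000026669, GRCm39 chromosome 2, 4994516 to 5017629, minus strand), which helps to start the replicative helicase, had the largest decrease of all 44 genes in the 4 comparisons. Its locus overlaps no other gene of the table. It was at 256, 64.6 and 334 CPM in hepatocytes and at 0.832 to 2.88 CPM in the 12 HepOrg libraries. Log2 fold changes were −6.77 (SE 0.53, adjusted p = 6.94e-07) and −7.68 (adjusted p = 3.15e-07) in HM-Wnt and −6.62 (SE 0.53, adjusted p = 1.05e-06) and −7.29 (SE 0.55, adjusted p = 7.72e-07) in MM. The next largest decrease of a licensing gene that passed was that of Mcm5. It was at 6.05, 8.14 and 2.47 CPM in hepatocytes and at 1.37, 0.837 and 0.65 in MM at 2 weeks, where it fell by 2.45 on the log2 scale (SE 0.63, adjusted p = 0.0073). The licensing factor Cdt1 (−1.47, adjusted p = 0.00634) and the helicase subunits Mcm4 (adjusted p = 0.0214) and Mcm3 (−0.89, adjusted p = 0.0474, and 0.0708 with the replicate number as a block) fell in that comparison too. Mcm2, a helicase subunit, was at 10.3, 14 and 7.15 CPM in hepatocytes and at 18.2, 12.3 and 17.7 in HM-Wnt at 1 week (log2 fold change 0.58, adjusted p = 0.067). Mcm6, which was printed above with 3 E2F matches, rose by 1.36 (adjusted p = 0.028) there, from 8.26, 24.7 and 3.65 CPM to 30.3, 43.6 and 23.5.

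In nucleotide supply, Rrm2, the inducible subunit of ribonucleotide reductase, was at 8.58, 11.8 and 5.3 CPM in hepatocytes and at 46.7, 53.3 and 48.7 in HM-Wnt at 1 week (log2 fold change 2.48, SE 0.29, adjusted p = 1.55e-05). It was at 24.5, 24.6 and 29.4 CPM at 2 weeks in HM-Wnt, at 19.4, 23 and 13.9 in MM at 1 week and at 8.56, 9.26 and 14.5 in MM at 2 weeks, where it overlapped the hepatocytes. Pcna, the sliding clamp of the replication fork, was at 21.7, 19.3 and 16.6 CPM in hepatocytes and at 20.9, 27.8 and 21.4 in HM-Wnt at 1 week and did not pass (0.23, adjusted p = 0.39). Tyms, thymidylate synthase, was at 10.8, 11.7 and 12.4 CPM in hepatocytes and fell in HM-Wnt at 2 weeks (5.37, 6.44 and 6.92 CPM, log2 fold change −0.93, SE 0.23, adjusted p = 0.00442), a call that was lost when total counts set the scaling (−0.36). Mcm7 at 1 week in HM-Wnt was lost in the same way (−0.55 with adjusted p = 0.0261, against −0.17). Tk1, thymidine kinase, had a count of 0 in all 27 libraries and was not tested. Its locus (GRCm39 chromosome 11, 117702770 to 117717042, minus strand) lies wholly within Gm20708 on the other strand, and what part that had in the 0 was not tested. Of the 45 loci, 16 overlap another gene of the table. The library protocol does not mark strand, so that reads from overlapping genes cannot be told apart.

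**Figure D3:**
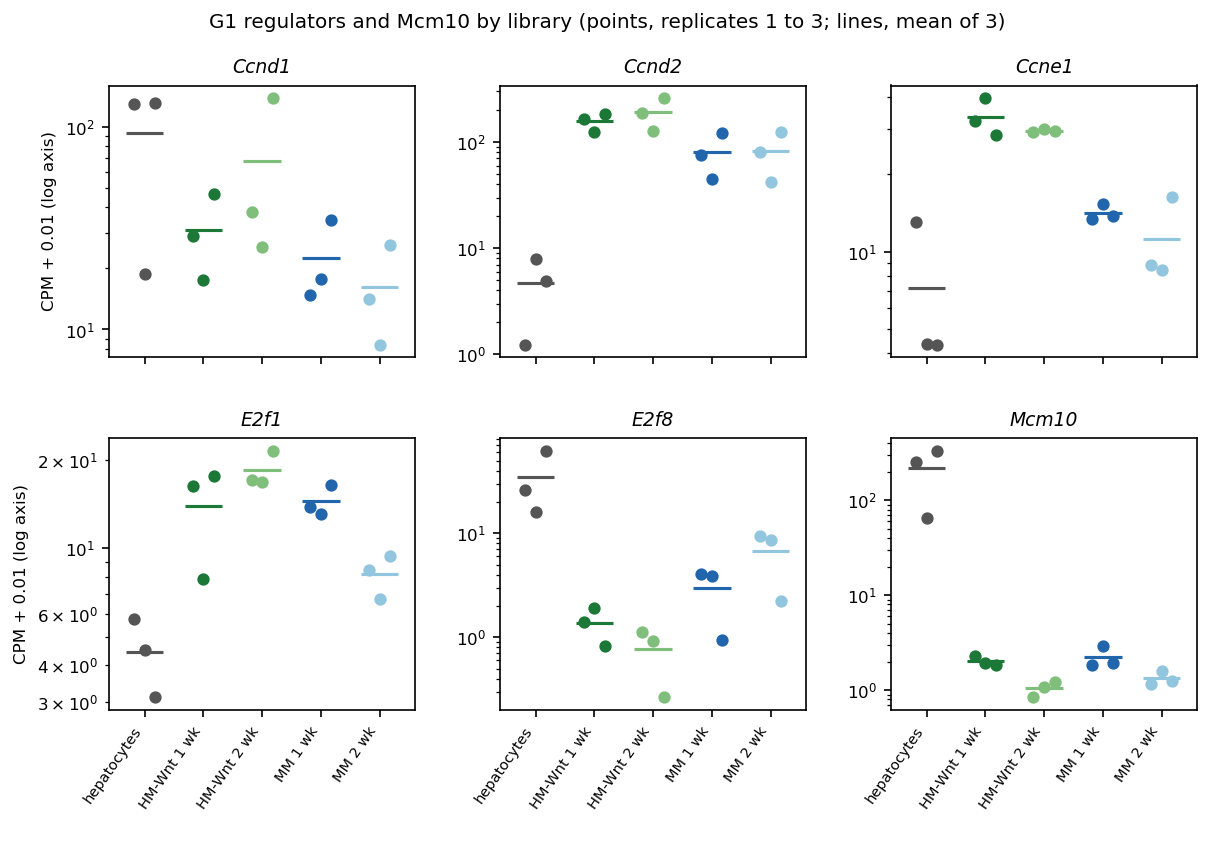
CPM + 0.01 on a log axis (y) of Ccnd1, Ccnd2, Ccne1, E2f1, E2f8 and Mcm10 in hepatocytes and the 4 HepOrg groups (x), with 1 point per library and a line at the mean of the 3. Ccnd2 and E2f1 lie higher in every HepOrg library than in every hepatocyte library, E2f8 and Mcm10 lie lower, and hepatocyte replicate 2 is the low point for Ccnd1 (18.7 CPM) and Mcm10 (64.6 CPM).

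Of 13 CDK inhibitors and related brakes tested, 5 rose and 2 fell in HM-Wnt at 1 week, against 24.9% and 24.8% of all genes tested, and 7 and 1 at 2 weeks, against 26.1% and 25.7%. In MM 5 and 1 did so at 1 week, against 21.5% and 21.3%, and 4 and 0 at 2 weeks, against 19.7% and 20%. Cdkn1a, the inhibitor p21, was at 1.09, 5.12 and 5.02 CPM in hepatocytes and at 152 to 294 CPM in the 12 HepOrg libraries. Its log2 fold changes were 5.52 (SE 0.48, adjusted p = 1.7e-06), 5.73, 5.74 and 5.75 in HM-Wnt at 1 and 2 weeks and MM at 1 and 2 weeks. Cdkn2b, an inhibitor of Cdk4 and Cdk6, was at 0.613, 0.306 and 0.244 CPM in hepatocytes and at 63.7, 71.5 and 94.2 in HM-Wnt at 1 week, with log2 fold changes of 7.36 (SE 0.54, adjusted p = 4.5e-07), 7.55, 6.63 and 6.42 in the same order. The inhibitors Cdkn1b and Cdkn1c fell in HM-Wnt at 1 week, the first (−0.82, adjusted p = 0.047) from 7.32, 4.95 and 6.7 CPM to 3.95, 2.62 and 4.43, and the second (−1.94, adjusted p = 0.049) from 0.613, 1.18 and 0.883 CPM to 0.029, 0.215 and 0.346. Rb1, the retinoblastoma gene, did not pass there (−0.45, adjusted p = 0.31), at 2.34, 3.98 and 3.87 CPM in hepatocytes and 2.9, 2.88 and 1.9 in HepOrgs. Cdk6 did not pass either (0.34, adjusted p = 0.25).

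Other genes of the same processes were counted from lists that hold none of the 45. In HM-Wnt at 1 week, 23 of 39 other mitotic genes tested rose and 1 fell (all genes 24.9% and 24.8%), led by the spindle gene Ckap2 (3.89), the mitotic regulator Gtse1 (3.62) and the kinetochore gene Nuf2 (3.22), with Ccnf as the one that fell (−2.37). Of 29 other replication genes, 7 rose and 4 fell, a share of rises near that of all genes, among them the checkpoint mediator Clspn (2.73) and the helicase component Gins2 (2.12) upward and the polymerase subunit Pola1 (−1.25) downward. In MM at 2 weeks 4 other mitotic genes rose and 4 fell, and 3 other replication genes rose and 9 fell, against 19.7% and 20% of all genes tested. Dtl, which directs degradation of Cdt1, fell there by 3.53 on the log2 scale.

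The second comparison set HepOrgs moved to the medium without the growth factors and pathway inhibitors against those kept with them, at matched times. After 1 week, 7 of 44 genes were lower in MM than in HM-Wnt and none was higher, against 1.22% of 12989 genes tested that were lower and 1.76% that were higher. After 2 weeks 14 were lower and 1 was higher, against 4.61% and 6.84%. The median log2 fold change of the 44 genes was −0.89 at 1 week and −1.16 at 2 weeks, and that of all genes tested was −0.00 and −0.02. At each time 40 of the 44 values were negative. The 7 genes at 1 week came from 7 roles, from Ccne1 in G1 to Top2a among the markers. Cdk1, Top2a, Rrm2, Ccne1, Cenpa and Aurka passed at both times.

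Of the genes that passed, Top2a had the largest decrease at 1 week, by 1.85 on the log2 scale (SE 0.29, adjusted p = 0.012), and fell by 2.91 at 2 weeks (SE 0.31, adjusted p = 0.000713). As given above, its lowest HM-Wnt library was at 8.94 CPM at 1 week and at 4.61 at 2 weeks, and its highest MM library was at 4.04 and 0.679. Cdk1 fell by 1.29 (SE 0.29, adjusted p = 0.0405) and 1.73 (SE 0.30, adjusted p = 0.00541), Rrm2 by 1.38 (SE 0.22, adjusted p = 0.0125) and 1.23 (adjusted p = 0.00643), and Ccne1 by 1.22 (SE 0.22, adjusted p = 0.0215) and 1.35 (SE 0.22, adjusted p = 0.00415). For these genes no MM library overlapped an HM-Wnt library of its time. Cenpa, the histone variant of centromeres, fell by 1.40 (SE 0.20, adjusted p = 0.00817), from 16, 16.5 and 16.9 CPM in HM-Wnt at 1 week to 5.11, 7.58 and 5.75 in MM, and by 1.16 at 2 weeks.

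At 2 weeks the genes that passed reached further into licensing and mitosis. Cenpe, a kinetochore motor, was at 0.706, 0.855 and 1.42 CPM in HM-Wnt and at 0.233, 0 and 0 in MM (log2 fold change −2.97, SE 0.78, adjusted p = 0.0333). Cdc6, which loads the helicase onto origins, was at 1.59, 1.96 and 1.98 CPM in HM-Wnt and at 0.285, 0.407 and 0.396 in MM (−2.14, SE 0.44, adjusted p = 0.0114). Cdt1 (−1.28, adjusted p = 0.0233) and Mcm6 (−0.99, adjusted p = 0.0107) fell too, so that 3 of 10 licensing genes did. Ube2c, the ubiquitin-conjugating enzyme of the anaphase-promoting complex, fell by 2.12 (SE 0.53, adjusted p = 0.0259) from 2.67, 3.02 and 4.03 CPM to 0.778, 0.385 and 0.876. Plk1 fell by 2.01 (SE 0.49, adjusted p = 0.0252) from 2.6, 2.31 and 2.67 CPM to 0.959, 0.362 and 0.368. E2f1 fell by 1.11 (SE 0.27, adjusted p = 0.0245), from levels of 16.8 to 21.5 CPM to 6.72 to 9.39.

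E2f8 was the 1 gene that rose in MM, by 3.13 on the log2 scale at 2 weeks (SE 0.72, adjusted p = 0.019). Its 3 MM libraries lay at 2.21 to 9.31 CPM and the HM-Wnt libraries at 0.255 to 1.11. At 1 week its log2 fold change of 1.13 did not pass (adjusted p = 0.34). Mki67 missed the threshold at both times, with −1.96 (adjusted p = 0.2) and −1.94 (adjusted p = 0.16). Ccnb1 (−2.14, adjusted p = 0.19) at 1 week, Ccnd1 (adjusted p = 0.065) and Aurkb (−1.23, adjusted p = 0.059) at 2 weeks, and Ccnd2 at 1 week (−0.95, adjusted p = 0.21) and 2 weeks (−1.16, adjusted p = 0.092) did not pass either.

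None of the 13 CDK inhibitors and brakes tested passed edgeR's test between media at either time, with 1 higher and 1 lower at an unadjusted p under 0.05 at 1 week and 1 and 4 at 2 weeks, and Cdkn1a had log2 fold changes of 0.21 and 0.03. The E2F gene E2f5 fell at both times (−1.33 with adjusted p = 0.025, and −1.27). At 2 weeks 6 of 29 other replication genes fell, led by Dtl (−2.72), Clspn (−2.48) and the chromatin remodeller Hells (−1.78). Of 39 other mitotic genes 4 fell, led by the spindle assembly factor Tpx2 (−2.09). None rose in either list. Among all genes tested 4.61% were lower and 6.84% higher. Summed hepatocyte markers moved with the medium, at 37655 to 44137 CPM in HM-Wnt and 12222 to 28810 in MM at 1 week and at 24479 to 26241 and 12457 to 17836 at 2 weeks, without overlap at either time, and their part in the result was not tested. MM replicate 3 at 2 weeks held 820 CPM of summed immune markers against 7.54 and 28.3 in the other two, and 14 members passed without it.

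Correlations within these counts hinted that replicate numbers paired the HepOrg libraries, so the same comparison was also fitted with the number as a block. It gave 0 higher and 9 lower at 1 week and 1 higher and 19 lower at 2 weeks. All genes past the threshold, over the whole table, rose from 387 to 1232 and from 1488 to 2544. With the block Ccnd2 passed at both times (−1.05, adjusted p = 0.00635, and −1.22, adjusted p = 0.000916), and 2 CDK inhibitors and brakes were lower at 1 week and 3 lower and 1 higher at 2 weeks. Other lists held 4 lower replication genes and 4 lower mitotic genes at 1 week and 3 lower E2F and pocket protein genes at 2 weeks. The count at 1 week rested on few libraries, with 0 genes left without MM replicate 1, and 3 to 5 without any other single library of the 6. At 2 weeks it lay between 8 and 15. The 1-week value under total counts was 4.

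**Figure D4:**
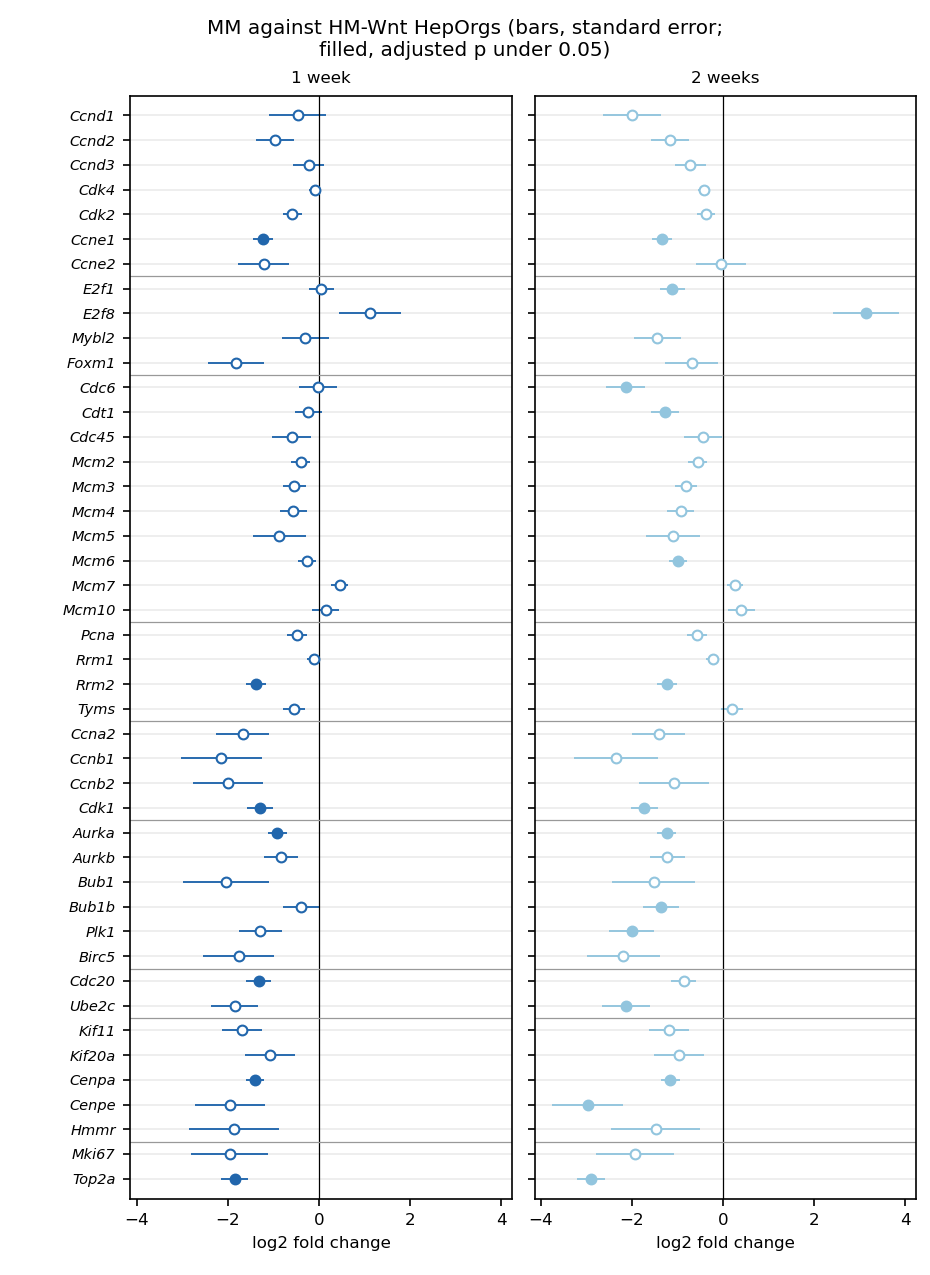
Log2 fold change of MM against HM-Wnt (x axis, with SE bars) for 44 genes (y axis, by role), at 1 week and at 2 weeks, 3 libraries per group. Filled points passed an adjusted p of 0.05, which were 7 genes at 1 week and 15 at 2 weeks. In each panel 40 points lie left of 0, and E2f8 is the filled point on the right at 2 weeks.

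Whether the genes moved between 1 and 2 weeks in 1 medium was not resolved. In HM-Wnt no gene of the 44 passed edgeR's test, with 0% of all genes tested, although 14 were lower and 1 higher at an unadjusted p under 0.05 and the median log2 fold change was −0.69. DESeq2 called 1 of the 44 and limma on log2(TPM + 1) or log2(TPM + 0.1) none. In MM no gene passed either, with 0.0154% of all genes tested, 18 were lower at an unadjusted p under 0.05, and the median was −0.85. DESeq2 called 7 there and limma none. The counts at an unadjusted p and by DESeq2 stand here without the share of all genes. Top2a (−2.07, adjusted p = 0.076) and Cdc6 (−2.04, adjusted p = 0.14) were among the most negative values. The difference of the medium effect between the 2 times was tested as an interaction, and 0 genes passed it in edgeR (0% of all genes tested), in DESeq2 or in limma, with 5 negative at an unadjusted p under 0.05. The medium effect was thus not shown to differ between 1 and 2 weeks.

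In assembloids the question was whether a higher number of mesenchymal cells went with a different level of cycle genes. With all 12 assembloid libraries in the fit, no member passed between fibrotic-like and homeostatic assembloids at 1 week, with 0% of all genes tested. At an unadjusted p under 0.05, 20 were higher, and DESeq2 called 16 and limma 15 or 12 with pseudocounts of 1 and 0.1. These last counts stand without the share of all genes, so they do not set the members apart from the rest of the table. Without homeostatic replicate 2, 13 of 44 were higher and none lower, against 3.14% of 14746 genes tested that were higher and 4.87% that were lower. The median log2 fold change was then 2.45, against 0.16 for all genes tested, and all 44 values were positive. In 35 genes the 3 fibrotic-like libraries lay above both homeostatic ones, and the same held for 28% of all genes tested. The 13 calls were lost when any of the 3 fibrotic-like libraries was left out as well, and with the replicate number as a block.

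The fibrotic-like libraries spread widely for most mitotic genes. Mki67 was at 16.1, 2.61 and 50.5 CPM in fibrotic-like assembloids at 1 week, and at 0.441 and 2.31 in homeostatic replicates 1 and 3. Top2a was at 24.3, 4.66 and 77.3 CPM against 0.909 and 4.51. Replicate 3 was the highest and replicate 2 the lowest of the fibrotic-like libraries for both, and neither gene passed (Mki67 3.97, adjusted p = 0.07, and Top2a 3.63, adjusted p = 0.078). Cdk1 was at 21.3, 10.1 and 49.8 CPM against 3.75 and 2.77 and rose by 2.98 (SE 0.70, adjusted p = 0.0447). Ccna2 was at 12.7, 2.01 and 25.8 CPM against 0.551 and 0.879 (4.11, SE 1.05, adjusted p = 0.0474), and Hmmr, a spindle protein also known as a hyaluronan receptor, was at 7.86, 2.15 and 27.2 CPM against 0.303 and 0.431 (4.89, SE 1.12, adjusted p = 0.0442). Ube2c was at 16, 4.32 and 40.7 CPM against 1.27 and 1.16 (3.97, SE 0.90, adjusted p = 0.0442).

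Outside mitosis, Cdk4 was at 211, 169 and 220 CPM against 63 and 98.4 and rose by 1.25 (SE 0.28, adjusted p = 0.0442). Rrm2 was at 57.1, 16.9 and 83.1 CPM against 7.93 and 4.48 (3.01, SE 0.74, adjusted p = 0.0465), and its partner subunit Rrm1 rose by 1.38 (adjusted p = 0.0456). Mcm4 was at 37.1, 16.4 and 74 CPM against 7.91 and 11.7 (2.06, adjusted p = 0.049). In the library left out, Mcm4 was at 144 CPM, Ccnd2 at 1484 and Foxm1 at 78.3, while Cdk1, Ccna2, Plk1 and Mki67 were at 0. Ccnd1 was at 110, 69.4 and 246 CPM in fibrotic-like and at 9.56 and 33.7 in homeostatic assembloids and did not pass (2.66, adjusted p = 0.057). Ccnd2 was at 325, 188 and 585 CPM against 41 and 183, with all fibrotic-like libraries above.

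Summed markers of the cell types also differed between these groups. Summed mesenchyme markers were at 2463, 6280 and 718 CPM in fibrotic-like assembloids at 1 week and at 132 and 382 in homeostatic replicates 1 and 3, so that every fibrotic-like library was higher than these. Summed hepatocyte markers were at 10409, 14632 and 1638 CPM against 27776 and 15306, with every fibrotic-like library lower, and summed cholangiocyte markers at 10965, 10611 and 7852 CPM against 7152 and 7406. Homeostatic replicate 2 was at 2116 CPM of mesenchyme, 902 of hepatocyte and 8303 of cholangiocyte markers. With it the groups overlapped in each of these sums. Among the fibrotic-like libraries the order of the mesenchyme sum was the reverse of that of Mki67, Top2a and Cdk1, since replicate 2 had the highest mesenchyme sum and the lowest level of these genes and replicate 3 the opposite. By edgeR's test without homeostatic replicate 2, 1 of 9 mesenchyme markers (Pdgfra, 5.34) and 1 of 8 cholangiocyte markers (Sox9, 1.56) rose, against 3.14% of all genes tested. Which cells the cycle transcripts came from was not tested.

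At 2.5 weeks no gene passed between fibrotic-like and homeostatic assembloids in edgeR, with 0% of all genes tested, nor in DESeq2 or limma, although 27 of the 44 had all 3 fibrotic-like libraries above all 3 homeostatic ones (21.7% of all genes tested) and 3 were higher at an unadjusted p under 0.05. The median log2 fold change was 1.32. Leaving homeostatic replicate 2 at 1 week out of the fit left this at 0 in edgeR, with 0.258% of all genes tested. At an unadjusted p under 0.05, 23 of the 44 were then higher, against 2181 of all 14746 genes tested. DESeq2 called 11 in that setting, a count that stands without the share of all genes. Mki67 was at 3.57, 13.9 and 4.88 CPM in fibrotic-like and at 1.73, 0.595 and 1.41 in homeostatic assembloids. Top2a was at 5.3, 21.8 and 10.1 CPM against 2.35, 0.718 and 2.18, Cdk1 at 7, 14.4 and 13.2 against 4.88, 1.85 and 3.89, and Ccnd2 at 250, 337 and 247 against 113, 94.3 and 57.6. For all of these the groups did not overlap, and replicate 2 was the highest of the fibrotic-like libraries. Summed mesenchyme markers were at 1420 to 5273 CPM in fibrotic-like and at 195 to 273 in homeostatic assembloids at that time, and their part in the result was not tested.

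Between 1 and 2.5 weeks no gene passed in homeostatic assembloids (0% of all genes tested, 6 lower at an unadjusted p under 0.05) or in fibrotic-like assembloids (0% of all genes tested and 0 of the 44 at an unadjusted p under 0.05), and the difference of the mesenchyme effect between the times was not detectable either (0% of all genes tested, 2 negative at an unadjusted p under 0.05). DESeq2 and limma called none of the 44 in these 3 comparisons. Without homeostatic replicate 2 the counts of calls were again 0. Over time in fibrotic-like assembloids 8 of the 44 were then lower at an unadjusted p under 0.05, against 691 of all 14746 genes tested. The median log2 fold change of the 44 was −1.20.

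The last comparison set assembloids at 1 week against the MM HepOrgs at 1 week, which had the same medium without the added cells. Homeostatic assembloids did not differ in any of the 44 genes in edgeR (0% of all genes tested), with 5 higher and 1 lower at an unadjusted p under 0.05, 3 called by DESeq2 and none by limma. Without replicate 2 there were again 0 calls, with 5 lower at an unadjusted p under 0.05, against 996 of all 14841 genes tested. Fibrotic-like assembloids had 0 calls with all libraries in the fit (0.751% of all genes tested), 20 higher at an unadjusted p under 0.05, 14 calls by DESeq2, and 28 or 19 by limma with pseudocounts of 1 and 0.1. The counts at an unadjusted p, by DESeq2 and by limma with all libraries in the fit stand without the share of all genes. Without homeostatic replicate 2, 33 of the 44 were higher and 1 was lower, against 18.2% of 14841 genes tested that were higher and 16.5% that were lower. The median log2 fold change was 2.05, and 0.10 for all genes tested. Leaving out fibrotic-like replicate 1, 2 or 3 as well gave 26 and 0, 37 and 1, and 16 and 0 higher and lower, so that this count rested more on replicate 3 than on the other two, and the block fit gave 24 calls.

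In the fit without homeostatic replicate 2, a library of neither group compared, the increase against MM HepOrgs took in nearly the whole late cycle. It held all 4 mitotic cyclins and kinase, all 6 mitotic kinases and checkpoint genes, both partners of the anaphase-promoting complex, all 5 spindle and kinetochore genes and both markers. It also took in 7 of 10 licensing genes. In 25 of the 44 genes the 3 fibrotic-like libraries lay above all 3 MM libraries (26.6% of all genes tested), among them all 4 mitotic cyclins and kinase but 1 of 6 mitotic kinases and checkpoint genes, 4 of 5 spindle and kinetochore genes and 1 of 2 markers. Cenpe had the largest log2 fold change of the genes that passed (SE 1.06, adjusted p = 0.0118), from 0.505, 0.566 and 0.608 CPM in MM HepOrgs to 7.34, 2.14 and 20.5. Bub1 rose by 3.90 (SE 1.40, adjusted p = 0.0442), from 0.544, 0.647 and 0 CPM to 4.13, 0.83 and 15.2. Hmmr rose by 3.91 (SE 1.21, adjusted p = 0.0238), Mki67 by 3.68 (SE 1.18, adjusted p = 0.0278) and Top2a by 3.56 (SE 0.89, adjusted p = 0.00888). The fibrotic-like libraries lay above the MM libraries for Cenpe and Bub1, and replicate 2 overlapped them for Mki67 (2.61 against 2.23, 2.72 and 0.101 CPM). Plk1, at 16.4, 1.92 and 29.1 CPM against 1.84, 3.18 and 0.851, also overlapped.

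Among the G1 genes, Cdk4 (1.39, SE 0.21, adjusted p = 0.00114), Ccnd1 (2.60, SE 0.64, adjusted p = 0.00806) and Ccnd2 (2.12, SE 0.57, adjusted p = 0.0128) rose against MM HepOrgs in the fit without homeostatic replicate 2. The cyclin E genes did not pass there. Ccne1 was at 15.9, 17.8 and 17.6 CPM against 13.4, 15.3 and 13.8 (0.21). E2f1 was the 1 gene that fell, by 0.63 on the log2 scale (SE 0.21, adjusted p = 0.035), from 13.9, 13.1 and 16.4 CPM to 10.6, 11.7 and 6.91, and its sign turned under total counts (0.10) and in limma on TPM (0.27 and 0.29). Mcm2 (1.30), at 32.4, 17.2 and 44.3 CPM against 10.7, 14.3 and 11.3, and Pcna (1.27), at 35.8, 19 and 70.2 against 13.1, 14.3 and 22, rose. Mcm10 (0.83) and E2f8 (0.42), the genes that were lower in HepOrgs than in hepatocytes, did not pass, at 3.41, 0.938 and 8.07 CPM and 2.35, 0.968 and 9.14 CPM in the fibrotic-like libraries.

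With all libraries in the fit, 0 genes of the other mitotic, replication, G1 regulator or CDK inhibitor lists passed in this comparison. The counts that follow come from the fit without homeostatic replicate 2, where 18.2% of all genes tested were higher and 16.5% lower. Of 39 mitotic genes 26 rose and none fell, led by Kif23 (6.50), a motor of cytokinesis, Cenpf (4.57) and Ndc80 (4.39). Of 30 replication genes 18 rose and 1 fell, led by Dscc1 (4.24), Exo1 (3.71) and Dtl (3.39), with Ung falling by 1.15 on the log2 scale. Of 10 other G1 regulators 7 rose, Cdk6 among them (1.38). Of 14 CDK inhibitors and brakes 5 were higher, among them Cdkn2a (3.26) and Cdkn2b (1.82). The 2 lower ones were Cdkn2c (−1.92) and Gadd45g (−1.53), a share near that of all genes. Mesenchyme markers rose in 8 of 9 and cholangiocyte markers in 5 of 8, and 2 of 8 hepatocyte markers fell.

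**Figure D5:**
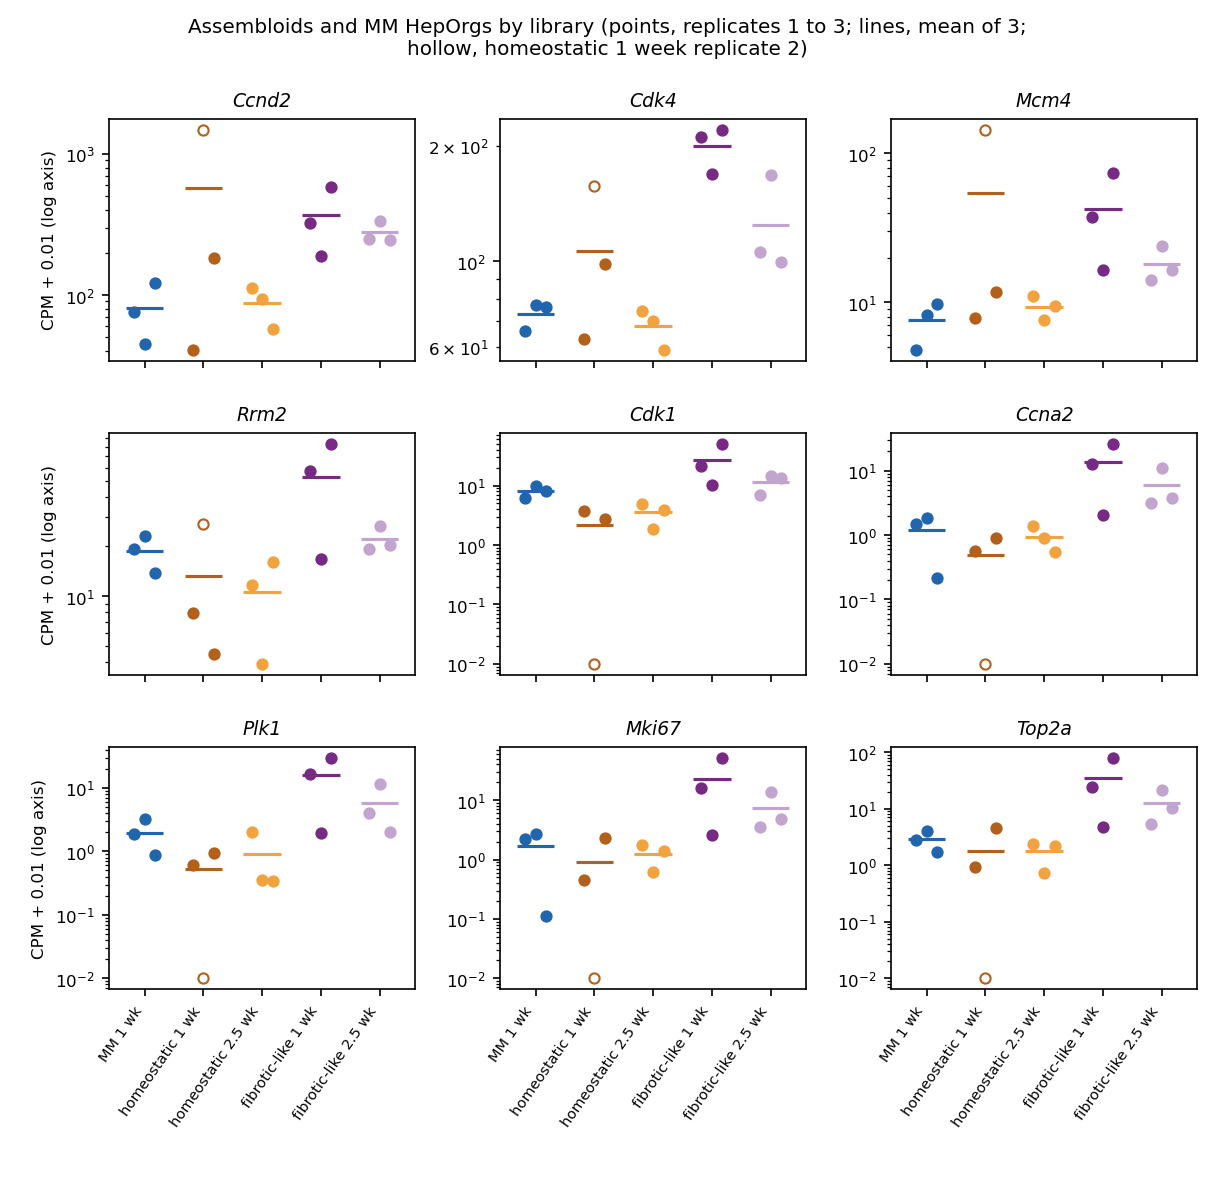
CPM per library (y, log axis) of Ccnd2, Cdk4, Mcm4, Rrm2, Cdk1, Ccna2, Plk1, Mki67 and Top2a in MM HepOrgs at 1 week and the 4 assembloid groups (x), 1 point per library and 3 per group. Hollow points are homeostatic assembloid replicate 2 at 1 week, which is at 0 for Cdk1, Ccna2, Plk1 and Mki67 and highest of all for Ccnd2 (1484 CPM). The fibrotic-like libraries at 1 week are the highest filled points for most genes and spread widely, with Mki67 from 2.61 to 50.5 CPM.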

How the data were processed

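RNA of 27 libraries was analysed as whole-number counts per gene, which the authors had deposited in 1 table of 37 libraries. The other 10 libraries were not used here, and 2 rows that name fluorescent reporters and no gene were left out. According to the study's methods, libraries were made with SMARTseq2 from column-purified RNA, sequenced as paired ends, aligned to GRCm39 with STAR and counted with featureCounts. Deposited TPM values served only for alternative fits. They seemed to be scaled by the whole gene span as length, which was not tested. The depth of 30289364 to 65348596 counts per library leaves the precision to the spread between libraries. The labels do not say whether the 3 libraries of a group came from separate animals or cultures, so that p-values measure the spread between these libraries, which may be technical.

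Counts were tested with the quasi-likelihood test of edgeR 4.0.16 (R 4.3.3), with TMM factors, genes kept by filterByExpr (minimum count 10, minimum total 15), a prior count of 2 for fold changes, and Benjamini-Hochberg adjustment over all genes of a fit at 0.05. Hepatocytes and HepOrgs shared 1 fit of 15 libraries, HepOrg comparisons 1 of 12, assembloids 1 of 12, and assembloids with MM HepOrgs 1 of 18. Alternatives were DESeq2 1.42.0, limma 3.58.1 on log2(TPM + 1) and log2(TPM + 0.1), RLE factors, total counts, no filter, a limit of 1 on the log2 fold change, all 27 libraries in 1 fit, each library left out in turn, and the replicate number as a block. Fits without homeostatic assembloid replicate 2 at 1 week were added after seeing the data. Counts at an unadjusted p, and counts by DESeq2, limma or another alternative setting, stand without the share of all genes unless it is given beside them. They therefore do not show that these genes differed from the rest of the table. Replicate numbers were checked by correlating deviations from group means. In HepOrgs 18 of 18 same-numbered pairs were over 0.1 (0.127 to 0.503), against 2 of 36 other pairs. That the numbers paired the HepOrg libraries is therefore only a hint from the data. With hepatocytes and HepOrgs together, 19 of 30 same-numbered pairs were over 0.1, against 7 of 60 other pairs. A pairing of hepatocytes with HepOrgs was therefore not shown. In assembloids 6 of 18 same-numbered pairs were over 0.1. The scripts were tested on simulated data first. Promoter matches and figures were made with Python 3.11.15 and matplotlib 3.10.9.

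Members, lists and tests were chosen with earlier results of these data known. Library values of 18 anchor genes are given where a gene is described, and not for every group or comparison. Further genes named include up to 3 with the highest and lowest fold changes among those that passed. The same rule served for other lists, plus Cdkn1a, Cdkn1b, Cdkn1c, Rb1, E2f7 and Cdk6. One gene of another list is not reported here.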

Additional observations from a re-analysis of the deposited data

How the results depend on the processing

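The number of the 44 tested genes past the threshold is given here for each comparison under the settings that moved it by more than 1.5 times. Against hepatocytes, 25, 15, 13 and 11 genes passed in HM-Wnt at 1 and 2 weeks and MM at 1 and 2 weeks. With all 27 libraries in 1 fit these were 7, 4, 2 and 2. In HM-Wnt at 2 weeks total counts gave 23 and limma 29 with either pseudocount, and in MM at 2 weeks the fold limit of 1 gave 7. Leaving out 1 library at a time gave 19 to 30, 13 to 22, 10 to 14 and 5 to 11, with the 5 and a 7 in MM at 2 weeks found without MM replicate 3 and MM replicate 2. Between media, 7 genes passed at 1 week and 15 at 2 weeks. The fit of all 27 libraries gave 0 and 0, DESeq2 12 and 24, and at 1 week total counts gave 4 and limma on log2(TPM + 1) 12. Without 1 library the ranges were 0 to 5 and 8 to 15, with 9 at 2 weeks without MM replicate 1 or HM-Wnt replicate 1 and 8 without MM replicate 2 or HM-Wnt replicate 3. Over time DESeq2 gave 1 in HM-Wnt and 7 in MM, where no filter gave 1 and leaving out 1 library 0 to 1, the 1 without replicate 3 at 1 week.

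Between fibrotic-like and homeostatic assembloids at 1 week, 0 genes passed, against 15 in the fit of all 27 libraries, 16 with DESeq2, 15 and 12 with limma at pseudocounts of 1 and 0.1, and 0 to 13 without 1 library, the 13 without homeostatic replicate 2. Homeostatic assembloids against MM HepOrgs had 0, against 1 in the fit of all 27 libraries, 3 with DESeq2 and 0 to 5 without 1 library, the 5 without homeostatic replicate 1. Fibrotic-like assembloids against MM HepOrgs had 0, against 6 with all 27 libraries, 14 with DESeq2, 28 and 19 with limma, 2 with total counts, 1 with RLE factors and 0 to 38 with libraries left out, the 34 without homeostatic replicate 2 and the 38 without fibrotic-like replicate 2 as well. Added after seeing the data, the fits without homeostatic replicate 2 gave for fibrotic-like against homeostatic at 1 week 13 (edgeR), 36 (DESeq2) and 36 (limma, 0.1), at 2.5 weeks 11 (DESeq2) and 1 (total counts), and for fibrotic-like against MM HepOrgs 34 (edgeR), 37 (DESeq2), 40 (limma, 0.1), 41 (total counts) and 24 (replicate block). In 1 fit of the remaining 26 libraries these 3 were 33, 7 and 34, and the media comparison had 1 and 6. The replicate block, with all libraries, gave 28, 16, 14 and 10 against hepatocytes and 9 and 20 between media, and moved no count of these genes by more than 1.5 times. With it Ccnd1, Plk1 and Cdc20 passed in HM-Wnt at 1 week against hepatocytes, Mcm3 in MM at 2 weeks did not, Ccnd2 passed between media, and no other call changed among the 123 fold changes refitted. The replicate numbers were not shown to pair hepatocytes with HepOrgs. E2f1 turned sign in fibrotic-like assembloids against MM HepOrgs, at 0.10 with total counts with or without homeostatic replicate 2, 0.27 in limma on log2(TPM + 1), and 0.29 on log2(TPM + 0.1) in both cases. Of 2126 refits of the 123 fold changes named, 1660 kept direction and call, 267 lost the call, 194 gained it and 5 turned sign. The causes of these moves were not tested. Genes at or below 1 CPM, such as Bub1 and Cenpe in hepatocytes or MM HepOrgs, rest on few counts, and with 3 libraries per group 1 library can decide a call.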
